A study of Chlamydomonas reinhardtii with 2 samples.

Results

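Neighbouring spliced units are the 805 pairs of adjacent, strand-assigned transcript regions that overlapped or lay within 10000 bases of each other on the numbered sequences 1 to 17 of the genome of Chlamydomonas reinhardtii. They were taken from 2026 pairs of adjacent units in all. A unit is a run of overlapping alignments of reads whose introns gave a transcript strand, joined on that strand, and it had to hold at least 2 such reads. Pairs were classed as same strand, convergent (a plus unit followed by a minus unit, so that the 3' ends face each other) or divergent (a minus unit followed by a plus unit, so that the 5' ends face each other). The pairs and their classes were chosen by measured values, namely strand, distance and the number of spliced reads, and these 3 measures are given as a description.

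The series set a culture with nitrogen beside one deprived of nitrogen, with 1 library of each. Both came from strain dw15.1 (genotype cw15, nit2, mt+; cw15 is a cell wall mutation), grown under continuous light in TAP medium to 5000000 cells per mL and then divided. The N-replete cells spent 48 hours in 50 mL of TAP medium with 10 mM ammonium, and full-length cDNA was made from their total RNA and read by pyrosequencing. All values below come from this 1 library. Its N-deprived counterpart was not used here, and there is no replicate error. Intervals are exact Clopper-Pearson 95% intervals for shares and order-statistic 95% intervals for medians, and they cover counting error only.

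Chlamydomonas is a unicellular green alga whose nuclear genes are rich in introns and lie close together. Introns carry their own direction, because the bases at the donor and acceptor sites differ, so a spliced read shows which strand was transcribed. Genes that diverge share the stretch of DNA upstream of both, which can serve as a promoter in both directions, whereas genes that converge can have 3' ends that overlap as antisense RNA. Neighbours on the same strand can be separate genes, or parts of 1 transcript between which no read was found. No gene names were assigned, since no annotation of the build used by the authors was used here. The sources used here do not name the genome version, and positions are those of the deposited alignments.

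The reads also carried marks of the cDNA ends that had no part in the choice of pairs, except where such a read was itself spliced. First-strand synthesis was primed at the poly(A) tail with the oligonucleotide shown here, in which capitals mark the T-rich part; a V and an N, which are mixed bases, follow at its 3' end. It is shown because reads that begin with it start at the poly(A) side of a transcript.
cDNA synthesis primer: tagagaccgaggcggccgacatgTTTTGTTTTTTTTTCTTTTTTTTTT
With the mixed bases the primer has 50 bases. Reads with 45 to 57 leading bases that did not align were counted as poly(A) end reads, and those with 34 to 44 as 5' end reads. An end was looked for between the facing introns of a pair, from the last intron of the left unit to the first intron of the right unit, where the end of a separate transcript would lie. The commonest position is the one with the most end reads, and a tie went to the lowest coordinate. Numbers of end reads given with a position count the whole stretch between the facing introns.

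Among 223396 reads with 1 best place, 44906 had a splice direction, and 41872 of these lay on sequences 1 to 17. They formed 2043 units of at least 2 reads, which held 39683 reads, and 2189 units of 1 read that were not used. The 805 pairs were made of 1277 units, of which 333 belonged to 2 pairs. Depth was low for most of them. In 431 of the 805 pairs at least 1 unit had the minimum of 2 reads, 138 pairs had 5 or more reads in both units, and 38 had 10 or more.

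Pairs on the same strand made up most of the neighbours, and their share was highest at short distance. The 805 pairs comprised 556 on the same strand (69.1%, interval 65.7 to 72.2), 126 convergent pairs (15.7%, interval 13.2 to 18.3) and 123 divergent pairs (15.3%, interval 12.9 to 17.95). With under 250 bases between the units, 147 of 157 pairs were on the same strand (93.6%, interval 88.6 to 96.9). The share was 84.7% (interval 79.03 to 89.4) of 203 pairs at 250 to under 1000 bases and 65.4% (interval 58.4 to 71.9) of 205 pairs at 1000 to under 3000 bases. At 3000 to 10000 bases it was 44.4% (interval 37.9 to 51.0) of 232 pairs. Among the 1221 adjacent units farther apart than 10000 bases, 50.1% (interval 47.3 to 53.0) were on the same strand, 24.6% were convergent and 25.3% divergent. The share beyond the limit lies inside the interval of the class at 3000 to 10000 bases and outside those of the shorter classes.

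**Figure D1:**
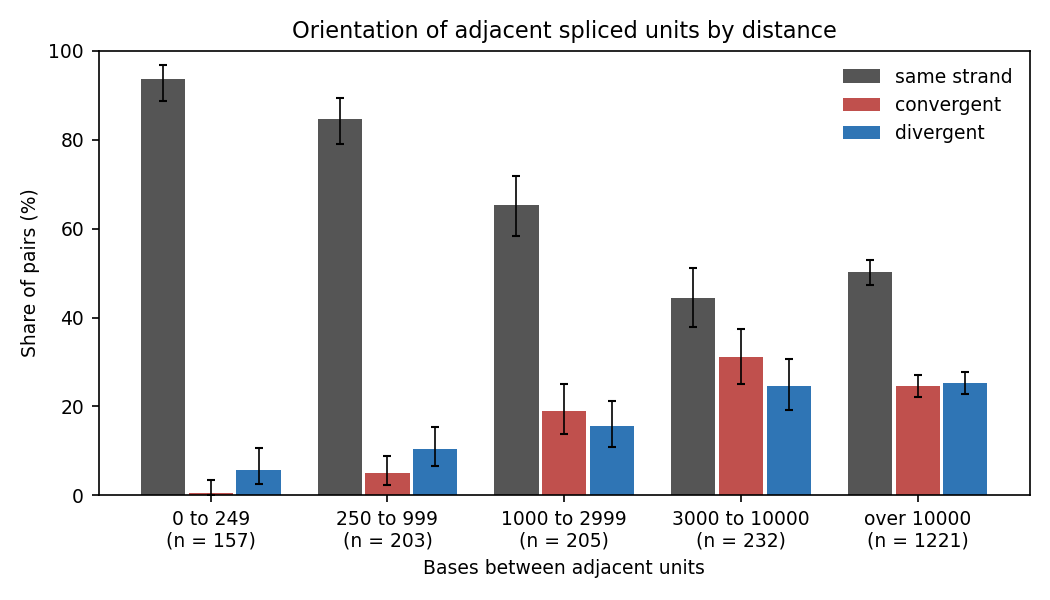
Share of same-strand, convergent and divergent pairs among adjacent spliced units, in percent, by the number of bases between them; bars show exact 95% intervals and n is the number of pairs. Same-strand pairs go from 93.6% under 250 bases to 44.4% at 3000 to 10000 bases and 50.1% beyond 10000 bases.

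Distances differed by class. Same-strand pairs had a median of 814.5 bases between the units (interval 637 to 905, quartiles 228 and 2211), convergent pairs 3731.5 bases (interval 2548 to 4501, quartiles 1998 and 6310) and divergent pairs 2471 bases (interval 1571 to 3617, quartiles 902.5 and 5730.5). Below 1000 bases there were 30 divergent but only 11 convergent pairs without overlap, whereas at 1000 to under 3000 bases there were 32 divergent and 39 convergent pairs. Units of the same strand that overlap are joined by definition, so overlap was possible between opposite strands only. The pair nearest inside the limit lay on the minus strand of sequence 12, with 9998 bases between units at 2330995 to 2331423 and 2341422 to 2341895, which had 3 reads each. Nearest outside it were minus-strand units on sequence 9 at 2526109 to 2526616 and 2536629 to 2540118, with 10012 bases between them and 5 and 15 reads.

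**Figure D2:**
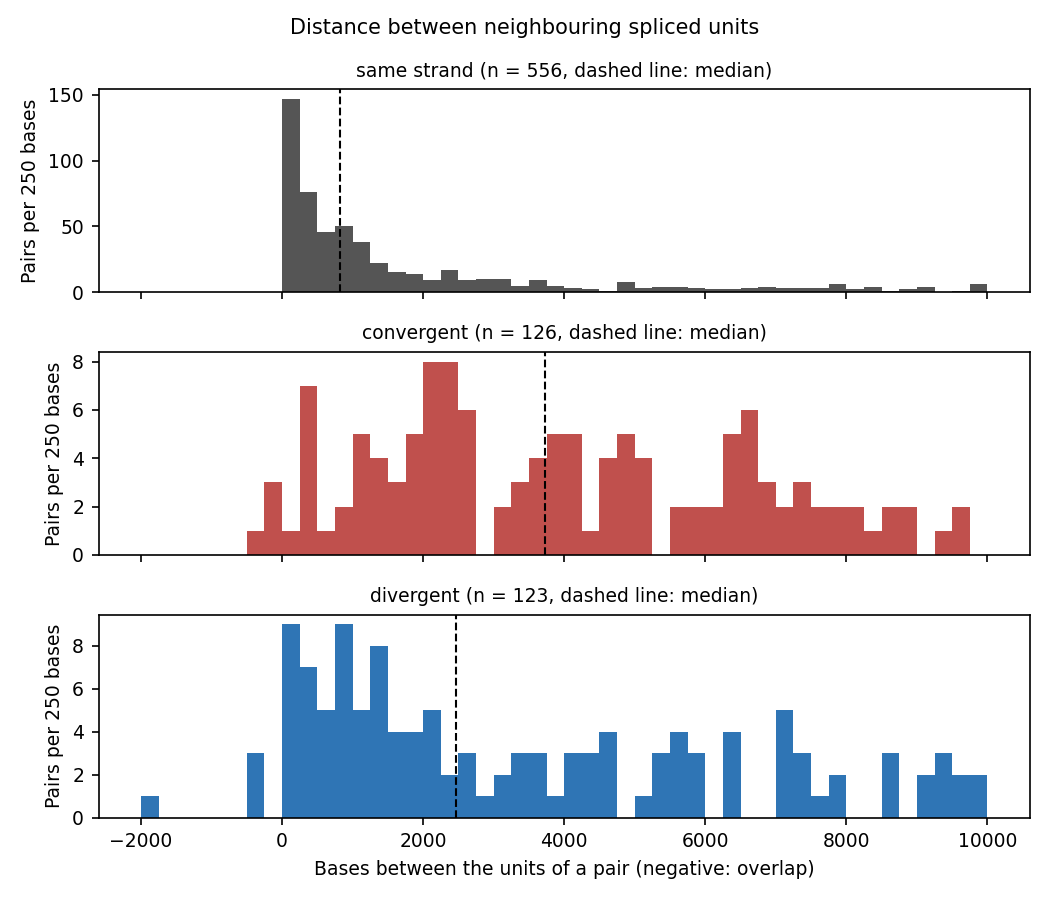
Number of pairs per 250 bases of distance between the units of a pair, by class, with the median as a dashed line; negative distances are overlaps. Same-strand pairs pile up next to 0, with a median of 814.5 bases, while convergent and divergent pairs are spread over the range with medians of 3731.5 and 2471 bases.

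Spliced units ended near the 5' end of the cDNA but well before the poly(A) end. Over 209 facing 5' ends with at least 2 end reads, the commonest 5' end lay a median of 2 bases beyond the border of the unit (interval 0 to 83, quartiles -3 and 260), and 49.3% lay at or inside the border. For 209 facing poly(A) ends the median was 544 bases beyond the border (interval 480 to 605, quartiles 289 and 926), and 7.18% lay at or inside it. Limited to ends within 1000 bases of the border, the medians were 0 and 437.5 bases. End reads that were themselves spliced helped to set the border they were measured from, which by itself gives values at or inside it. Their number was not counted. The stretch from the border to the poly(A) end counts as distance between units, on both sides of a convergent pair and on 1 side of a same-strand pair.

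Reads from cDNA ends were scarce between close units of the same strand and common between close divergent units. Of 319 same-strand pairs with under 1000 bases between the units, 283 had no end read at either facing end (88.7%, interval 84.7 to 92.0). The same was true of 3 of 30 divergent pairs (10.0%, interval 2.11 to 26.5) and of 5 of 11 convergent pairs (45.5%, interval 16.7 to 76.6) at this distance. The less-read unit had a median of 3, 2 and 3 reads, while the median stretch between the facing introns was 463, 702 and 800 bases. Depth of the more-read unit was less alike. The median ratio of read numbers was 1.6, 2.45 and 4.19, with overlapping pairs included in the last 2 classes. At 3000 to 10000 bases, no end read was found for 17.5% (interval 10.7 to 26.2) of 103 same-strand pairs, 12.5% (interval 5.88 to 22.4) of 72 convergent pairs and 19.3% (interval 10.05 to 31.9) of 57 divergent pairs, and the 3 intervals overlap. In the stricter count, with 2 or more end reads at both facing ends, were 46 of 556 same-strand pairs (8.27%, interval 6.12 to 10.9), 41 of 125 convergent pairs (32.8%, interval 24.7 to 41.8) and 30 of 119 divergent pairs (25.2%, interval 17.7 to 33.99). Limited to ends within 1000 bases of their own unit, a limit set after the values were seen, the shares were 5.58%, 17.6% and 21.0%, so that the convergent share fell below the divergent one. None of the 147 same-strand pairs with under 250 bases between the units met the stricter count, which allows a share of up to 2.48%. These counts pool all distances. Without the limit on ends, the 3 shares were 9.70%, 53.8% and 15.6% at 1000 to under 3000 bases. At 3000 to 10000 bases they were 23.3%, 26.4% and 28.1%, so the order depended on distance. Whether close units of the same strand are pieces of 1 transcript was not tested, so they are called units here.

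**Figure D3:**
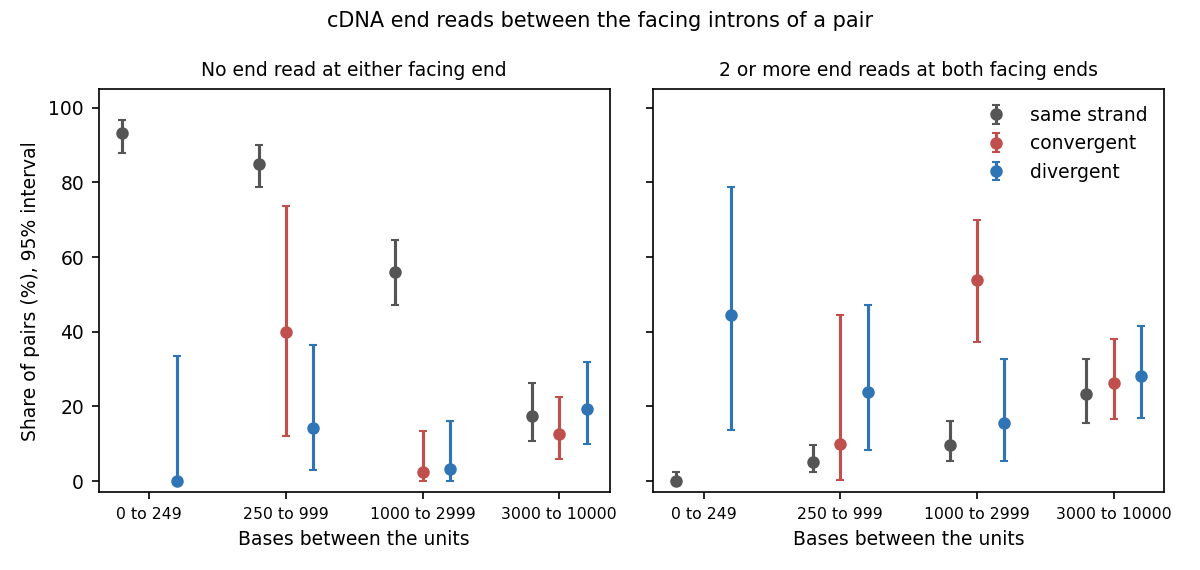
Share of pairs, in percent with exact 95% intervals, that had no end read at either facing end (left) or at least 2 end reads at both (right), by class and by the number of bases between the units; groups of fewer than 5 pairs are left out. Under 1000 bases most same-strand pairs have no end read, and at 3000 to 10000 bases the intervals of the 3 classes overlap.

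Reads without a splice direction, which the choice of pairs did not use, joined some of these gaps. A chain of overlapping alignments of such reads ran from one unit to the next in 46 of the 147 same-strand pairs under 250 bases (31.3%, interval 23.9 to 39.5), and in 43 of them at least 1 read crossed the whole gap. At 250 to under 1000 bases 8 of 172 same-strand pairs were linked, and none of the 237 pairs beyond. No end read was seen between the units of 46 of the 54 linked pairs. Among the other classes, over all distances, 5 of 122 convergent pairs without overlap were linked (4.10%, interval 1.34 to 9.31) and none of 119 divergent pairs (up to 3.05%). The linked convergent pairs were 3 of 10 at 250 to under 1000 bases (30%, interval 6.67 to 65.2) and 2 of 39 at 1000 to under 3000 bases. The same-strand share at 250 to under 1000 bases was 4.65% (interval 2.03 to 8.96). Gaps without any such read were 43.2% of 551 same-strand gaps and 11.8% of 119 divergent gaps, and none of 122 convergent gaps was without one. In convergent pairs a median of 27.1% of the gap was covered (quartiles 16.1 and 45.8), against 5.78% in same-strand pairs and 7.81% in divergent pairs. These figures pool all distances, which differ by class. At 1000 to under 3000 bases, 35.1% of 134 same-strand and 3.13% of 32 divergent gaps had no such read. At 3000 to 10000 bases the order was the opposite, with 2.91% of 103 and 12.3% of 57. The median share covered was there 9.05% in same-strand, 18.3% in convergent and 4.49% in divergent pairs.

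The 3 same-strand pairs with the shortest gaps among those with 5 or more reads in both units are examples. On the plus strand of sequence 12, the units at 5424852 to 5426403 and 5426407 to 5427216 had 14 reads each, 3 bases apart, and 5 reads crossed the gap. On sequence 13, plus-strand units at 5788420 to 5789071 with 9 reads and 5789078 to 5790169 with 15 reads lay 6 bases apart and were crossed by 14 reads. Neither of these pairs had an end read between the facing introns. Mean coverage, the number of aligned read bases per covered exonic base, was 7.98 and 8.01 on the 2 sides of the gap on sequence 13. It counts the unit's spliced reads and also reads without splice direction, whose strand is not known. The third pair, on the plus strand of sequence 2 at 9566258 to 9569574 and 9569580 to 9570078, had 36 and 6 reads and 5 bases between its units. It differed in having 5 reads of the 5' end kind at the start of the right unit, the commonest at base 9569580, although 1 read crossed the gap.

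Facing 5' ends of divergent pairs were often about 100 bases apart. Among the 58 divergent pairs with at least 1 end read at both facing 5' ends, the commonest positions had 80 to under 140 bases between them in 25 (43.1%, interval 30.2 to 56.8). The neighbouring windows of equal width held 1 pair (20 to under 80 bases), 1 pair (140 to under 200) and no pair (200 to under 260). The 25 values ran from 87 to 133 bases with a median of 104, and the pairs lay on 11 of the 17 sequences. With at least 2 end reads at both ends, 11 of 30 pairs fell in the window (36.7%, interval 19.9 to 56.1), at 89 to 133 bases, and none in the windows on either side. The window was set after these values had been seen. In several of the 11 pairs the position taken on the plus side held only 1 of the end reads, so positions tied. The lowest coordinate, on the side of the minus unit, was then taken, and the spacing depended on this rule. On the minus side a tie went to the position farther from the plus unit. No other rule for ties was tried. For the other classes, by the count with 1 end read, 6 of 81 same-strand pairs (7.41%, interval 2.77 to 15.4) and 2 of 67 convergent pairs (2.99%, interval 0.364 to 10.4) had facing ends at this spacing. Because the window was placed on the divergent values, these shares are a description and no comparison of the classes. The divergent share by the count with 2 end reads also varied with the settings, from 22% of pairs with a distance limit of 20000 bases to 55.6% with 5000 bases.

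**Figure D4:**
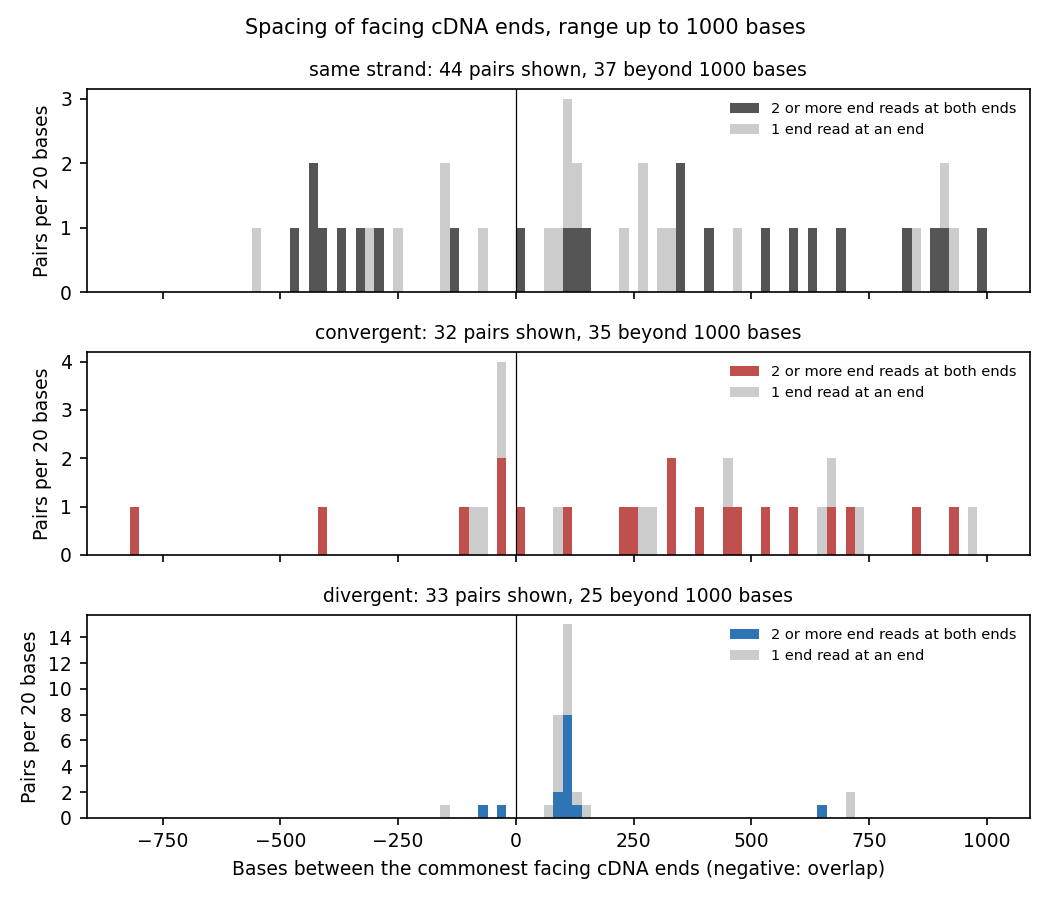
Number of pairs per 20 bases of spacing between the commonest facing cDNA ends, up to 1000 bases, by class; coloured bars are pairs with 2 or more end reads at both ends and grey bars pairs with 1 end read at an end, and negative values are overlaps. The divergent pairs form a peak, with 25 of 58 pairs from 80 to under 140 bases, and the other classes are spread.

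Closely spaced divergent pairs included several with many reads in at least 1 of the units. On sequence 6, the minus unit at 2009391 to 2010808 and the plus unit at 2010881 to 2012629 had 42 and 29 reads with 72 bases between them. Their commonest 5' ends, at 2010793 with 18 end reads in all and at 2010904 with 1, left 110 bases between. A second pair on sequence 6, at 2920102 to 2922610 and 2922719 to 2924538, had 152 reads on the minus and 21 on the plus side and 108 bases between the units. Here the 5' ends at 2922600 (1 end read) and 2922720 (5 end reads) were 119 bases apart. Both pairs rest on a single end read on one side. On sequence 9 the minus unit at 401302 to 401817 had 3 reads and the plus unit at 401915 to 404744 had 146, with 5' ends at 401804 (2 end reads) and 401924 (21 end reads), also 119 bases apart. The 2 end reads of this minus unit lay at different positions, of which the lower is given. Sequence 16 held a pair at 5967597 to 5976591 with 29 reads and 5976830 to 5977693 with 9 reads, whose 5' ends at 5976593 (4 end reads) and 5976705 (7 end reads) were 111 bases apart. On sequence 17, units at 4483035 to 4483494 and 4483591 to 4484401 had 3 and 18 reads and 5' ends 114 bases apart, at 4483494 (4 end reads) and 4483609 (7 end reads). The pairs on sequences 9, 16 and 17 lie outside the rule for named members and were chosen after their values were seen.

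An end between 2 units need not belong to either of them. The divergent pair on sequence 12 at 100498 to 101155 and 108587 to 111647 had 456 and 16 reads and 7431 bases between its units. The minus unit had 214 end reads, the commonest position being 101146. On the plus strand 3 end reads lay between the facing introns, each at its own position. The lowest of these positions, 101247, left 100 bases to 101146 and was far from the plus unit. Limited to ends within 1000 bases of their own unit, 16 of 40 divergent pairs with at least 1 end read at both ends had a spacing of 80 to under 140 bases (40%, interval 24.9 to 56.7). In the other 9 of the 25 pairs with this spacing, an end lay farther than that from its own unit.

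The other divergent pairs with the most reads were far apart at their 5' ends. On sequence 17, the minus unit at 932206 to 933222 had 52 reads and the plus unit at 935229 to 936368 had 107, and their 5' ends at 933438 (6 end reads) and 935086 (90 end reads) left 1647 bases between. A pair on sequence 9 at 4512949 to 4514372 and 4519799 to 4523961 had 131 and 24 reads and 5440 bases between its 5' ends. On sequence 10, units at 4492496 to 4495300 and 4503073 to 4504000 had 96 and 16 reads, and their 5' ends stood exactly at the facing borders, 7772 bases apart. Mean coverage of that last pair was 26.7 and 25.5, so the sides were nearly even per exonic base although the numbers of spliced reads differed 6-fold. With reads without splice direction, which this coverage includes, 141 and 84 reads lay on the exons.

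Poly(A) ends of convergent pairs were spread widely, and a few overlapped. With at least 2 end reads at both ends, 41 convergent pairs had a median of 1112 bases between their poly(A) ends (interval 460 to 3089, quartiles 327 and 3447). In 5 of the 41 the ends overlapped, by 26 to 801 bases. Only 1 of these 5 had both ends within 1000 bases of its own unit. In that pair, on sequence 12, the plus unit at 1440378 to 1441115 had 48 reads and 24 poly(A) end reads, the commonest position being 1441716. The minus unit at 1442170 to 1442757 had 4 reads and 2 poly(A) end reads at different positions, the lower at 1441607. With this lower position, which held 1 read, the poly(A) ends overlapped by 110 bases, although the spliced units were 1054 bases apart. The higher position would give less overlap or none. This pair was named after its values were seen.

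The convergent pairs with the most reads ranged from under 1000 bases to far apart. The best covered pair, on sequence 17, had a plus unit at 935229 to 936368 with 107 reads, which is also the right side of the divergent pair described above, and a minus unit at 936783 to 937255 with 96 reads. Its gap of 414 bases was bridged by reads without splice direction, and 1 poly(A) end read was seen on each side, at 936831 and 936916. A pair on sequence 6 at 2929821 to 2932210 and 2932602 to 2934420 had 88 and 21 reads. Its poly(A) ends at 2932207 (15 end reads) and 2932535 (8 end reads) were 327 bases apart, the first of them just inside the border of its unit, and the units were 391 bases apart. On sequence 5, units at 1533924 to 1535599 and 1537698 to 1540506 with 11 and 67 reads had poly(A) ends 934 bases apart. A further pair of cases was wide apart at their ends, with 3521 bases on sequence 14 (1981302 to 1983278, 177 reads, and 1987307 to 1987919, 11 reads) and 5476 bases on sequence 9 (4504908 to 4506908, 23 reads, and 4512949 to 4514372, 131 reads). In the pair on sequence 3 at 5337710 to 5340918 and 5344838 to 5346472, with 46 and 12 reads, each side had 2 end reads at different positions. The lower position of each side, 5341408 and 5341380, held 1 read and gave an overlap of 29 bases. The second of these lies far from the minus unit.

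Some same-strand pairs were separated by cDNA ends of both kinds. All 6 pairs with the most reads in the less-read unit had at least 2 end reads at both facing ends. On the minus strand of sequence 12, the units at 3099719 to 3101765 and 3102718 to 3103690 had 42 and 155 reads and 952 bases between them. The right unit, which is upstream on this strand, had 85 poly(A) end reads, the commonest at 3102730, and the left unit had 5 reads of the 5' kind, the commonest at 3101747, so that 982 bases lay between the end of one cDNA and the start of the next. A further pair on sequence 12, at 1866011 to 1868792 and 1869424 to 1872389, had 28 and 236 reads and 697 bases between the poly(A) end and the next 5' end. On sequence 2 the plus units at 2268384 to 2271213 and 2272231 to 2273464 had 18 and 405 reads, and 405 bases separated the poly(A) end at 2271835 (5 end reads) from the 5' end at 2272241 (135 end reads). The 3 remaining pairs, on sequence 1 at 912613 and 918980, on sequence 2 at 6036258 and 6041316 and on sequence 10 at 4484388 and 4492496 (start positions), had 3951, 3714 and 3244 bases between their ends.

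Over the 46 same-strand pairs with at least 2 end reads at both facing ends, a median of 1028.5 bases lay between the poly(A) end and the next 5' end (interval 535 to 3225). For the 31 pairs with both ends within 1000 bases of their own units the median was 2233 bases (interval 826 to 3951). The 8 pairs with a negative value had a 5' end read position before the commonest poly(A) end. Only 1 of the 8 had both ends within 1000 bases of their own units. An example with a short positive value, chosen after it was seen, was the plus-strand pair on sequence 2 at 1952204 to 1953588 and 1954484 to 1955638, with 18 and 15 reads. Its poly(A) end at 1953920 (13 end reads) and the next 5' end at 1954024 (11 end reads) had 103 bases between them.

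Overlap between spliced units of opposite strands was rare. It was found in 4 of 126 convergent pairs (3.17%, interval 0.872 to 7.93) and in 4 of 123 divergent pairs (3.25%, interval 0.893 to 8.12). Most units stopped short of the poly(A) end, so these counts do not cover overlap of whole transcripts. With units extended by reads without splice direction, the shares were 4.76% and 3.25%. The overlaps of poly(A) ends in 5 of 41 convergent pairs, given above, are counted apart. In each of the 8 overlapping pairs 1 unit had the minimum of 2 reads, so none met the rule of at least 5 reads in both, and all are described here after their values were seen. The longest overlap, of 1991 bases on sequence 6, set a minus unit of 396 reads at 2907101 to 2909285 against 2 plus-strand reads. The intron of these 2 reads, 2907324 to 2909115, was 1792 bases long and enclosed all 6 introns of the minus unit. On sequence 2 the plus-strand intron 5621971 to 5622156, in 2 reads, differed from a minus-strand intron in 11 reads by 7 bases at the start and 6 at the end. On sequence 12 the intron 4118573 to 4118737 differed from one of the other strand by 2 and 3 bases. Such near-identical introns on both strands were found in these 2 pairs. In 2 others, on sequence 3 at 4474848 to 4475031 and on sequence 11 at 1372972 to 1373041, the intron of the less-read unit had AT-AC borders rather than GT-AG. The less-read unit held a single distinct alignment, read 2 times, in 3 of the 8 pairs. Whether these 8 pairs are antisense transcription was not tested.

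The relation between the levels of partners differed with class, distance and the measure, read number or coverage. Across all 805 pairs, Spearman's rank correlation between the spliced reads of the left and the right unit was 0.102, and the higher number was a median of 2 times the lower (quartiles 1.33 and 3.5). The rank correlation of read numbers was 0.39 across the 54 linked same-strand pairs, -0.349 across 15 convergent pairs that overlapped or lay under 1000 bases apart, and -0.348 across 39 convergent pairs at 1000 to under 3000 bases. It was 0.217 across the 319 same-strand pairs with under 1000 bases between them. Mean coverage per exonic base had a rank correlation of 0.475 across the 319 same-strand pairs with under 1000 bases between them, 0.138 across 134 such pairs at 1000 to under 3000 bases and 0.00218 across 103 at 3000 to 10000 bases. It was 0.0534 across 612 same-strand neighbours beyond the limit. A read that crosses a gap counts in the coverage of both units, which holds for 43 of those 319 pairs. For divergent pairs the rank correlation of coverage was 0.148 (123 pairs) and for convergent pairs 0.0743 (126 pairs). For the 15 and the 39 convergent pairs named above, the rank correlation of coverage was 0.343 and -0.184. The first thus had the opposite sign to that of read numbers. Units share the library and many have 2 or 3 reads, so these values are only a description. A coverage ratio of 10 or more between partners was seen in 2 of the 319 close same-strand pairs (0.627%), in 21 of all 556 (3.78%), in 20 convergent pairs (15.9%) and in 11 divergent pairs (8.94%), against 12.3% of the 1221 adjacent pairs beyond the limit.

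Large differences between neighbours did occur. In the divergent pair on sequence 12 at 100498 and 108587, mean coverage was 231.0 against 3.94. In the convergent pair on sequence 14 at 1981302 and 1987307 it was 160.8 against 8.67, and in the same-strand pair on sequence 2 at 2268384 and 2272231 it was 5.33 against 159.8. Per exonic base, the divergent pair on sequence 6 at 2009391 and 2010881 was closer to even, with 21.2 against 9.77.

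Units with and without a near neighbour had similar numbers of introns, and introns were slightly shorter in pairs. The 1277 units in pairs had a median of 2 introns (quartiles 1 and 4) and of 3 reads (quartiles 2 and 7), and the 766 units in no pair had a median of 3 introns (interval 2 to 3) and of 3 reads (quartiles 2 and 11). With 10 or more reads, the 232 paired and the 207 other units both had a median of 5 introns, and 726 and 725 covered exonic bases. Mean coverage had a median of 2.57 (interval 2.45 to 2.69) in pairs and 2.43 (interval 2.25 to 2.64) outside pairs over all units. The order was the opposite for units of 10 or more reads, with 8.46 (interval 6.91 to 9.77) in pairs and 12.7 (interval 10.25 to 15.3) outside. Intron length had a median of 212 bases in paired units (interval 207 to 217, 3679 introns) against 225 bases (interval 218 to 232, 2442 introns). GT-AG borders made up 95.7% and 94.96% of them. A unit needs other units near it to be in a pair, and these depend on depth, so the groups are not independent of read number.

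Neighbours formed 472 runs in which each unit lay within 10000 bases of the next, 281 of them with 2 units, 191 with 3 or more and 34 with 5 or more. Of the 191, 72 lay on 1 strand throughout. The run with the most units covered 45260 bases of sequence 1, from 8721845 to 8767104. Its 12 units held 59 reads, 9 on the minus and 3 on the plus strand, with 5 changes of strand along the run, and 22 of the reads belonged to the last unit. The next run, on sequence 17 from 4473839 to 4515231, had 9 units and 57 reads, 6 units on the minus and 3 on the plus strand. It contains the divergent pair with 5' ends 114 bases apart that is described above.

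**Figure D5:**
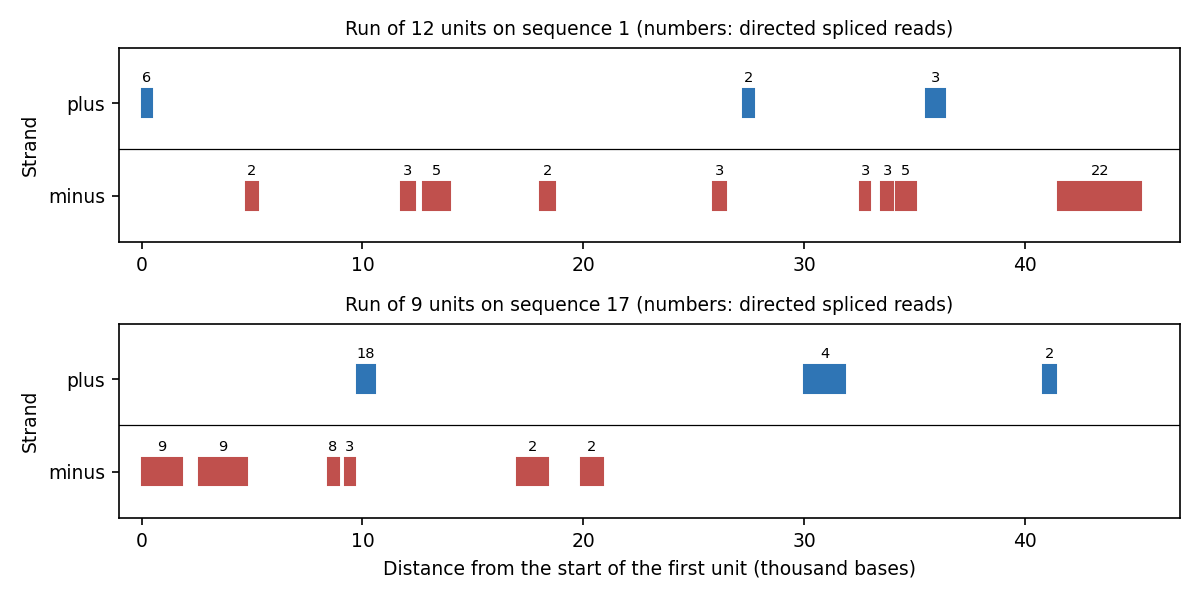
Map of the 2 runs with the most units, by distance from the start of the first unit in kb; boxes are spliced units on the plus (upper) and minus (lower) strand, drawn to scale, with their number of directed spliced reads. The run on sequence 1 has 12 units and the run on sequence 17 has 9, and single units carry 22 and 18 of the reads.

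Pairs occurred on all 17 sequences. Sequence 12 had the most, 141 of its 306 adjacent pairs (46.1%, interval 40.4 to 51.8), and sequence 8 the fewest, 8 of 40 (20%, interval 9.05 to 35.6). Divergent pairs were absent from sequences 8 and 14, which had 8 and 10 pairs in all. On sequence 6 there were 21 divergent and 13 convergent pairs, and on sequence 12 there were 18 and 29.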

How the data were processed

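The authors deposited a list of alignments of single N-replete reads, made with a GMAP release of 2007 with both -K and -L set to 1000, per the file headers. The headers do not say what these options limit, and introns longer than that were aligned (1 of 1792 bases is described above), so whether a limit on introns split transcripts into same-strand units was not tested. The submitters' processing notes name GSNAP. These records are alignments in no expression unit. For each read, identity was multiplied by aligned share and the best place kept; reads with a place elsewhere within 0.1 percentage points were dropped, 16189 of 239585 in all. PCR copies are not independent molecules. Reads were joined into units by their spans, and gaps of at least 20 bases counted as introns. The sequence named NA was not used for pairs. Units, tied reads, pairs with their class and distance, and facing end reads were recovered in simulated alignments with known answers. Links over a gap, overlaps and gaps under 1000 bases were not simulated. 

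Members, classes, measures and end ranges were chosen with earlier results of these data known. Named pairs are, per class, the 6 with the most reads in the less-read unit, then the 3 longest overlaps per opposite-strand class and the 3 shortest same-strand gaps with at least 5 reads in both units, the pairs on either side of the limit and the 2 longest runs. With 1 library no test between groups was made. The alternatives concern tied reads, alignment quality, duplicates, reads per unit, joining, distance and end reads. Computation used scipy 1.17.1 and numpy 2.4.6 under Python 3.11.15, and figures matplotlib 3.10.9.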

Additional observations from a re-analysis of the deposited data

Results flagged for a closer look

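Data outside the pairs held more of the same signal. The sequence named NA, which was left out by the choice of sequences 1 to 17, had 99 units of at least 2 spliced reads, and 38 of its 98 adjacent pairs lay within 10000 bases, with 30 on the same strand, 4 convergent and 4 divergent. What this sequence holds, and whether distances on it join true neighbours, was not tested. Reads that scored equally at several places had no part in any unit. Of 487 such reads with a splice direction on sequences 1 to 17, 302 lay over a unit of a pair by their listed best place.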

How the results depend on the processing

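No paired analysis was possible because 1 library was analysed and no result comes from a test between groups. Of 289 recomputed values, 216 stayed within the interval of the value above or within 1.5 times a count, and 73 moved; the cause was not tested except where stated. None moved with reads of 1 alignment, a margin of 1 point, identity of at least 95% alone, joining by aligned bases, extension of units by reads without splice direction, or without sequence 12. Leaving out sequence 12, joining close units and limiting ends to their own unit were chosen after seeing the data. End shares below are shares of pairs with enough end reads at both facing ends, in the order same strand, convergent, divergent where 3 are given.

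The number of reads per unit mattered most. With at least 1 read there were 2433 pairs, 72.75% on the same strand, with end shares of 3.28%, 14.3% and 10.9%, 4.35% of same-strand pairs linked, 557 runs of 3 or more units and a longest run of 26. With at least 5 reads there were 167 pairs, 62.3% on the same strand and 22.2% convergent, a same-strand median distance of 925 bases, overlap in 0% of convergent and 0% of divergent pairs and a rank correlation of read numbers of 0.011. End shares were 27.9%, 72.97% and 50%, 22.1% of same-strand pairs were linked, units had a median of 4 introns, and 25 runs had 3 or more units, at most 6. With at least 10 reads there were 42 pairs, 61.9% on the same strand and 21.4% convergent, with median distances of 984.5, 2530 and 5426 bases, overlap in 0% of both opposite-strand classes, a rank correlation of -0.10 and a median ratio of reads of 3.2. End shares were 53.8%, 88.9% and 57.1%, 30.8% of same-strand and 11.1% of convergent pairs were linked, the median was 4 introns, and 9 runs had 3 or more units, at most 4.

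With a limit of 5000 bases the class shares were 74.7%, 12.5% and 12.8%, median distances 615.5, 2349 and 1380 bases, and the longest run 7 units. With 20000 bases the same-strand share was 64.98%, medians were 1083.5, 5543 and 5730.5 bases, and the same-strand end share was 11.6%. Joining same-strand units up to 1000 bases apart, which removes the closest pairs by construction, left 485 pairs with class shares of 49.1%, 25.8% and 25.2%. The same-strand median distance was then 2600.5 bases, the ratio of reads 2.5, the same-strand end share 15.5%, 0% were linked, the median was 3 introns and 96 runs had 3 or more units.

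With 1 end read the end shares were 14.6%, 53.6% and 48.7%, with any 20 or more leading unaligned bases the convergent share was 46.4%, and with ends within 1000 bases of their own unit the end shares were 5.58%, 17.6% and 21.0%, which turns the order of the last 2. Requiring 95% identity and 90% of the read aligned gave end shares of 0%, 0% and 0%, since it removes reads with long unaligned starts, so that 5' spacing had no value, and 0.952% of convergent pairs were linked. Counting duplicates once left overlap in 0.862% of convergent pairs. The share of divergent pairs with 5' ends 80 to under 140 bases apart, 36.7% with a wide interval of 19.9 to 56.1, was 22% with a limit of 20000 bases, 23.1% with at least 5 reads, 25% with at least 10 reads and 55.6% with a limit of 5000 bases. Depth limits all of this, since 431 of the 805 pairs rest on a unit of 2 reads.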
